A study of Mus musculus with 50 samples.

Results

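The Dlk1-Dio3 imprinted locus is a stretch of mouse chromosome 12 in which some genes are read from the copy inherited from the father and others from the copy inherited from the mother. Its members here were the 6 genes Dlk1, Meg3, Rtl1, Rian, Mirg and Dio3, found by matching the identifiers of the count table to gene symbols, and they were 6 of 37469 identifiers in the table. The members were chosen by their levels in transplant against primary sarcomas in earlier results of these data. Every level that compares the tumor models is therefore given as a description, with no test.

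Bulk RNA sequencing was performed on 48 p53/MCA sarcomas of 129/SvJae mice. Primary tumors were induced in Trp53 fl/fl mice that were 6 to 10 weeks old at injection. An adenovirus carrying Cre recombinase (Adeno-Cre) removed Trp53 in the gastrocnemius muscle, and 300 µg of the carcinogen 3-methylcholanthrene (MCA) was injected there. Transplant tumors grew in the same muscle of syngeneic mice from 50000 cells of line 402230, so all 16 transplants descended from a single line. What belongs to that line and what belongs to transplantation cannot be told apart. Tumors of about 150 mm3 received 200 µg of the anti-PD-1 antibody muDX400 or of an isotype control, followed by 0 or 20 Gy of radiation to the hind limb, and were harvested 3 days later. There were 8 primary tumors and 4 transplants in each of the 4 treatment arms. Isotype control with 0 Gy is called untreated, and 20 Gy with anti-PD-1 is called the combination. Because bulk tumors were sequenced, fewer cells that express a gene and less RNA per cell cannot be told apart.

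In most mammalian tissues Dlk1, Rtl1 and Dio3 are read from the paternal copy and encode proteins, and the long non-coding RNAs Meg3, Rian and Mirg are read from the maternal copy. The non-coding RNAs carry many small nucleolar RNAs and microRNAs (miRNAs) in their introns and exons. A methylated control region between Dlk1 and Meg3 keeps the parental copies apart, and in muscle the locus is known from fetal growth and regeneration. The counts held no information on which parental copy a read came from.

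On the mm10 assembly the locus ran over 828 kb, at chr12:109452823-110281097 from the start of Dlk1 to the end of Dio3. Dlk1 lay first, at 109452823 to 109463336 on the plus strand. It was followed by Meg3 at 109541001 to 109571726, Rian at 109603940 to 109661716, Mirg at 109729764 to 109749460 and Dio3 at 110279068 to 110281097, all on the plus strand. Rtl1 lay between Meg3 and Rian, at 109589193 to 109600330, on the minus strand. The annotation placed 67 miRNA genes and 23 small nucleolar RNA genes in this span, and 82 of the genes annotated there had a row in the table.

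The 250 bases that precede the RefSeq starts of Dlk1 and Meg3 are shown because these neighbors, read from opposite parental copies, were both lower in transplants. Capitals mark a cAMP response element (TGACGTCA) or a TATA box (TATAAA), searched on both strands together with the GC box GGGCGG.
Dlk1, GRCm38.p6 chr12:109452573-109452822, plus strand: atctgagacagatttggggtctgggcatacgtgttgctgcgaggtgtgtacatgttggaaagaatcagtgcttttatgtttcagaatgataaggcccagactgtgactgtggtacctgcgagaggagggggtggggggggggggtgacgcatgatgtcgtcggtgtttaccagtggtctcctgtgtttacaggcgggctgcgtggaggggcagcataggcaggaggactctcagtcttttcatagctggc
Meg3, GRCm38.p6 chr12:109540746-109540995, plus strand: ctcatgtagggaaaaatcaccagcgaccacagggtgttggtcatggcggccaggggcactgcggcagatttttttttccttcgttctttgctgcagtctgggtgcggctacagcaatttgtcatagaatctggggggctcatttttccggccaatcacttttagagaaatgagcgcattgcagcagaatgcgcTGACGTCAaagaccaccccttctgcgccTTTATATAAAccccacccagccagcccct
The Meg3 window held 1 cAMP response element and 2 overlapping matches to the TATA box, 1 on each strand. The Dlk1 window held none of the 3 motifs. Of 32851 windows of the same length before RefSeq starts, 1.55% held the cAMP response element, 12.4% the TATA box and 32.7% the GC box. The Dlk1 window had 8 CpG dinucleotides and the Meg3 window had 10, against a median of 6 over all windows. A motif match is a description of the letters only.

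The 6 hairpins that lie inside the span of Rtl1 on the opposite strand give miRNAs that pair along their whole length with the Rtl1 transcript. They are shown because they tie the maternal strand to a paternally expressed member, with the seed (bases 2 to 8) in capitals and 1 mature miRNA for each hairpin.
miR-431-5p, chr12:109590459-109590479: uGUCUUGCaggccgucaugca
miR-433-3p, chr12:109591781-109591802: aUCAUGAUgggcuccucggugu
miR-127-3p, chr12:109592888-109592909: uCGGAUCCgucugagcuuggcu
miR-434-3p, chr12:109594565-109594586: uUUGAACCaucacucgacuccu
miR-432, chr12:109595006-109595028: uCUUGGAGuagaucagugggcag
miR-136-5p, chr12:109595331-109595352: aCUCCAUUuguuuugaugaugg
RefSeq lists 11 mature miRNAs from these 6 hairpins, on the plus strand of GRCm38.p6. All 11 matched the Rtl1 transcript in full, and no seed was shared among them. Over the mature miRNAs of the whole locus, 10 seeds were each shared by 2 miRNAs. The libraries were made from RNA caught on oligo-dT beads, so mature miRNAs themselves were not measured.

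The library totals ran from 31810461 to 54008259 counts over the 48 tumors. Levels are given in CPM, the counts of a gene relative to library size, with library sizes scaled by the trimmed mean of M-values (TMM). Of the 37469 identifiers, 19327 passed a filter on low counts, and all 6 members were among them. Rtl1 passed only through the primary tumors. A further pair of libraries came from line 402230, and their markers went against their labels. The library labelled parental tumor had the leukocyte gene Ptprc at 0.112 CPM and the endothelial gene Pecam1 at 0.112 CPM, below all 48 tumors. The library labelled cell line had Ptprc at 81.9 CPM and Pecam1 at 104.4 CPM. Both libraries are therefore described only at the end, under the names of their labels.

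Dlk1, a membrane protein with EGF-like repeats that is related to Notch ligands and holds back fat cell formation, was the most abundant member per length in primary tumors. Untreated primary tumors held between 165 and 1690 CPM of Dlk1, with a median of 258. The 4 untreated transplants held 4.605, 10.4, 14.9 and 5.25 CPM. All 4 transplants lay below all 8 primaries, and the mean level was 56.6 times higher in the primaries. Over all genes tested, 4.36% had untreated transplants wholly below untreated primaries and 2.87% had them wholly above.

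The same order of the models held for Dlk1 under each treatment. With anti-PD-1 alone, transplants held 1.78, 45.8, 4.79 and 9.36 CPM and primaries 24.5 to 2490 with a median of 378. A single transplant at 45.8 CPM overlapped the primaries there. After 20 Gy alone, transplants held 7.11, 12.3, 3.32 and 6.05 CPM and primaries 46.9 to 1111 with a median of 236, with no overlap. After the combination, transplants held 4.68, 4.11, 1.12 and 3.99 CPM and primaries 4.32 to 458 with a median of 98.7. Here 3 of 4 transplants lay below all primaries, and the lowest primary lay at the level of transplants. The fitted log2 fold change of transplants against primaries was -5.82 (SE 1.30) untreated, -5.29 (SE 1.26) with anti-PD-1, -5.72 (SE 1.29) after 20 Gy and -5.47 (SE 1.28) after the combination. Without the transplant at 45.8 CPM, the value with anti-PD-1 was -6.83.

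Rtl1, a gene derived from a retrotransposon that is known from placenta and fetal muscle, was near the limit of detection in all tumors. The 4 untreated transplants had 0 counts of Rtl1, against 0.498 ± 0.454 CPM (SD, n = 8) in untreated primaries, whose counts ran from 1 to 64 a library. With a floor of 3 counts over the group, or 0.0172 CPM, Rtl1 was at least 29.0-fold lower in untreated transplants. Over all treatments, 9 of 16 transplants had no count and the other transplants had 5 or fewer, whereas each of the 32 primaries had at least 1 and the median was 11. The floor covers counting error only.

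Dio3, the deiodinase that inactivates thyroid hormones, went the other way. Untreated transplants held 0.286, 2.38, 11.7 and 3.63 CPM of Dio3, and untreated primaries 0.0864 to 1.73 with a median of 1.16. Of 4 untreated transplants 3 lay above all 8 primaries, and the fourth lay inside their range. The fitted log2 fold change was 2.17 (SE 0.88) untreated, 2.88 (SE 0.88) with anti-PD-1, 0.69 (SE 0.89) after 20 Gy and 1.06 (SE 0.88) after the combination. The value after 20 Gy depended on the tool and was -0.0018 with limma voom. With anti-PD-1 alone, Dio3 was at 20.1, 1.68, 6.71 and 5.604 CPM in transplants and at 0.234 to 4.26 in primaries, whose median was 0.828. After 20 Gy alone, transplants held 0.0779, 6.82, 7.15 and 3.27 CPM and primaries 0.239 to 7.17 with a median of 2.16. After the combination, transplants held 3.33, 11.3, 5.38 and 15.6 CPM and primaries 0.356 to 12.7 with a median of 2.61. The models overlapped in all 4 treatments. The single highest and lowest values of Dio3 in the study, 20.1 and 0.0779 CPM, were both transplants.

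Meg3, the first non-coding RNA of the maternal copy and a candidate tumor suppressor, was lower in transplants in each treatment. Untreated transplants held 5.63, 7.22, 9.93 and 21.9 CPM, and untreated primaries 39.3 to 378 with a median of 159. With anti-PD-1 alone the transplants held 11.6, 8.56, 6.61 and 11.03 CPM against 34.7 to 388 in primaries. After 20 Gy alone they held 3.91, 24.0, 11.6 and 2.71 CPM against 94.8 to 312 in primaries. The models did not overlap in these 3 treatments. After the combination the transplants held 3.27, 60.5, 11.8 and 28.6 CPM and the primaries 18.1 to 190, and the ranges overlapped.

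Rian, which carries small nucleolar RNAs, followed Meg3. Untreated transplants held 3.94, 7.97, 10.4 and 12.6 CPM of Rian, and untreated primaries 110.5 to 354 with a median of 206. With anti-PD-1 alone transplants held 14.9, 7.29, 10.4 and 10.7 CPM against 83.2 to 409 in primaries, and after 20 Gy alone 4.83, 11.04, 11.2 and 3.32 CPM against 71.4 to 289. The models did not overlap in these 3 treatments. After the combination transplants held 4.94, 51.3, 10.5 and 17.7 CPM and primaries 20.9 to 120, and 1 transplant reached into the range of the primaries.

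Mirg, the non-coding host of the last large miRNA cluster, was the least abundant of the 3. Untreated transplants held 0.549, 0.527, 0.383 and 0.919 CPM of Mirg, and untreated primaries 3.31 to 18.0 with a median of 7.34. With anti-PD-1 alone transplants held 0.621, 0.5005, 0.369 and 0.685 CPM against 3.88 to 17.5, and after 20 Gy alone 0.448, 0.840, 0.493 and 0.152 CPM against 3.87 to 12.7. As for Meg3 and Rian, the models did not overlap before the combination. After it, transplants held 0.416, 1.62, 0.584 and 0.914 CPM and primaries 0.742 to 7.03.

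The fitted differences of the 3 non-coding RNAs lay close together. Untreated, transplants were lower by a log2 fold change of -3.89 (SE 0.78) for Meg3, -4.66 (SE 0.58) for Rian and -3.88 (SE 0.58) for Mirg. With anti-PD-1 these values were -4.12, -4.28 and -3.96, and after 20 Gy they were -4.26, -4.49 and -4.23. After the combination they were smaller, at -1.71, -1.88 and -2.16. The transplant with 60.5 CPM of Meg3 weighed on these last values, which were -2.53, -2.81 and -2.62 without it. Counting the 6 members, 5 had untreated transplants wholly below untreated primaries, beside 4.36% of all genes. With anti-PD-1 alone 3 members did so, beside 3.3% of all genes, and after 20 Gy alone 5 did, beside 2.33%. After the combination 0 members did, beside 1.28%. Rtl1, which passed the filter only through the primaries, was among the 5 both untreated and after 20 Gy. Since these contrasts chose the members, nothing is read from the shares.

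**Figure D1:**
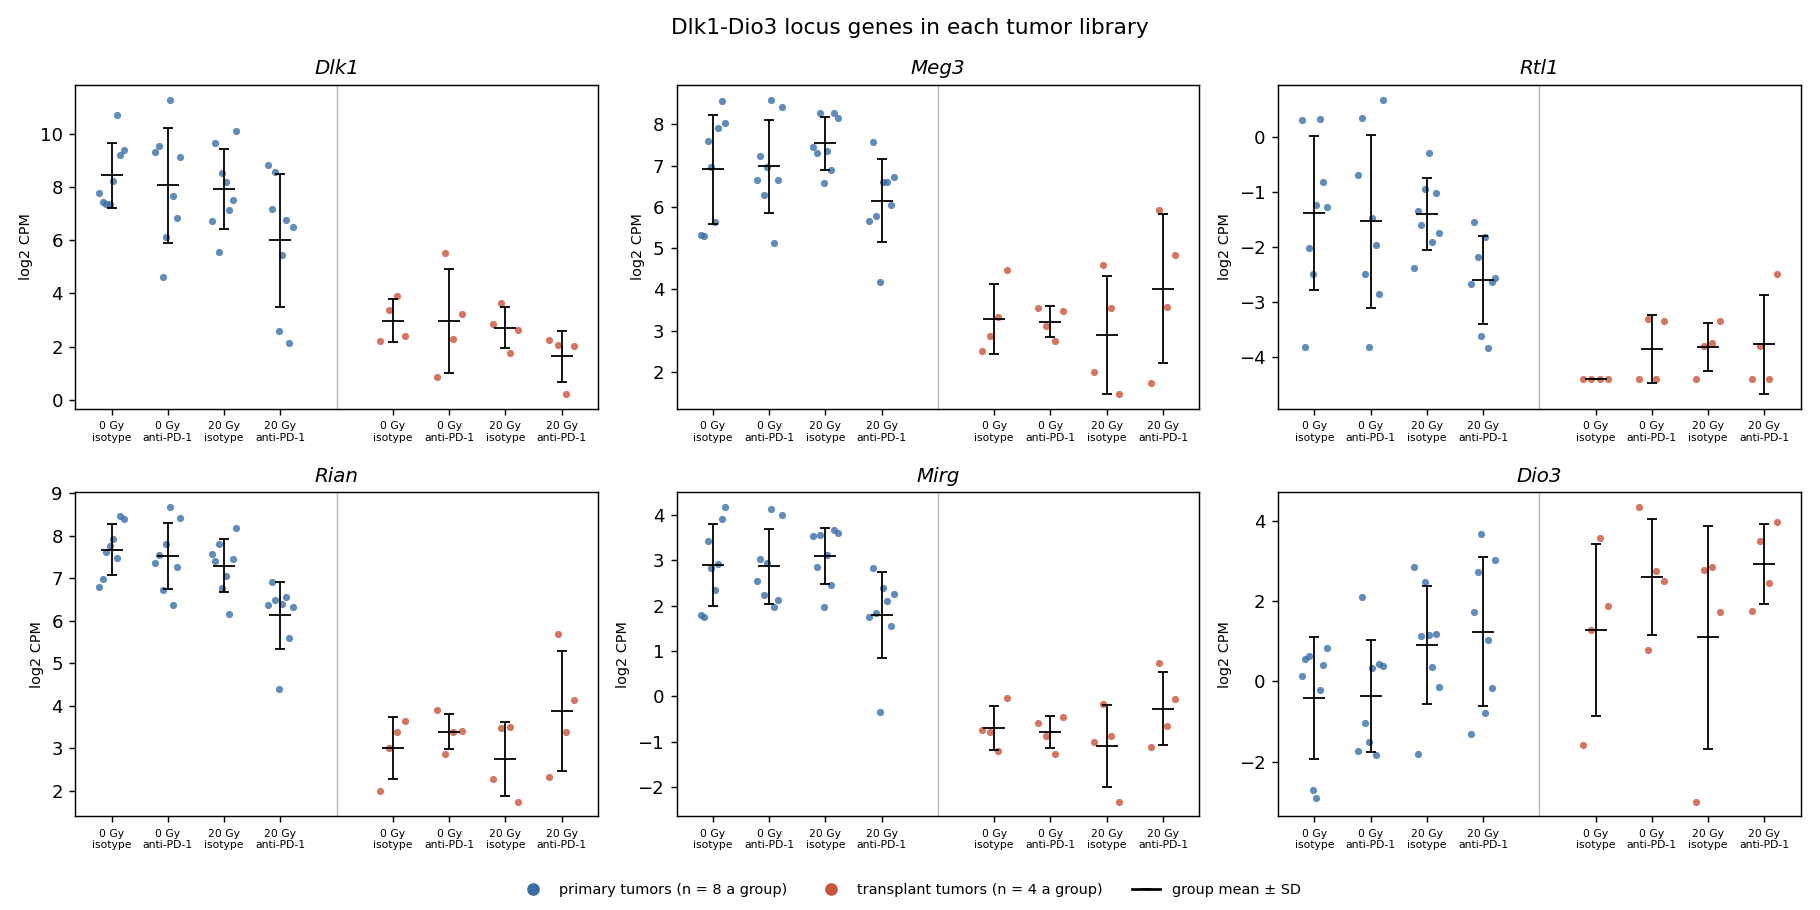
Level of each of the 6 locus genes in log2 CPM in each tumor (points), by treatment, for 8 primary (blue) and 4 transplant (red) tumors a group, with bars for the group mean ± SD. Untreated transplants lie below all untreated primaries for Dlk1, Meg3, Rtl1, Rian and Mirg, while Dio3 is higher in 3 of 4 untreated transplants than in all 8 untreated primaries.

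Ordered by mean log2 CPM, the 4 primary groups stood above the 4 transplant groups for Dlk1, Meg3, Rtl1, Rian and Mirg. In each of these genes the step from the lowest primary group, the combination, to the highest transplant group exceeded the larger SD of the pair, although single tumors overlapped. Among primary groups, the combination lay below its neighbor by more than the larger SD for Rian (a gap of 1.17) and Mirg (1.08), and by less for Dlk1, Meg3 and Rtl1. Among transplant groups, the only neighbors further apart than the larger SD were 20 Gy alone and the combination for Dlk1, with a gap of 1.07. For Dio3 no pair of neighboring groups was further apart than the larger SD.

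Levels of different members can be compared only per length. In CPM per kb of exon, the medians over 32 primaries were 34.3 for Dlk1, 8.81 for Rian, 6.72 for Meg3, 0.878 for Mirg, 0.621 for Dio3 and 0.0381 for Rtl1. The medians over 16 transplants were 2.71 for Dio3, 0.887 for Dlk1, 0.579 for Meg3, 0.574 for Rian, 0.0738 for Mirg and 0 for Rtl1. By this length, which merges the exons of all annotated isoforms (5657 bases for Dlk1 and 2030 for Dio3), Dlk1 led in primaries and Dio3 in transplants. The isoforms in use were not measured, and the order in transplants can depend on the length chosen. Within a tumor, the level of Mirg per length relative to that of Meg3 was nearly the same in both models, with a mean log2 ratio of -2.88 ± 0.64 (SD, n = 16) in transplants and -2.93 ± 0.43 (SD, n = 32) in primaries. For Dlk1 relative to Meg3 it was 0.89 ± 1.82 in transplants and 2.38 ± 1.82 in primaries.

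Within groups, Dlk1 varied more than the other members in primaries. The SD of log2 CPM pooled over the 4 primary groups was 1.92 for Dlk1, which is higher than for 97.8% of all genes tested. It was 1.57 for Dio3, 1.17 for Rtl1, 1.05 for Meg3, 0.84 for Mirg and 0.71 for Rian. In transplants Dio3 varied most, with a pooled SD of 1.96. Across all primaries Dlk1 spanned a 576-fold range, and across transplants Dio3 spanned a 258-fold range.

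Other genes of the locus and its flanks were then examined by position. A further 5 annotated genes between Dlk1 and Dio3 passed the filter. Of these, Mir433, Mir434 and Gm26945 passed only through primary tumors. Mir433, a miRNA gene inside Rtl1, had 10 counts summed over 16 transplants and 310 over 32 primaries. Mir434 had 11 and 219, and Gm26945 had 5 and 197. Summed over the 49 miRNA genes of the locus with a row, a transplant library held 0 to 11 counts with a median of 3, and a primary library at least 7 with a median of 31. For the 6 miRNA genes inside Rtl1, whose sequences are given above, a transplant library held 0 to 4 counts and a primary library 2 to 59. These reads are of polyadenylated RNA and not of mature miRNAs. Whether counting used the strand, which keeps Rtl1 apart from RNA of the opposite strand, is not given in the sources used here.

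Dio3os, a non-coding RNA next to Dio3 on the opposite strand, had a log2 fold change of 1.08 (SE 0.83) in untreated transplants against primaries (edgeR adjusted p = 0.437). It did not pass the threshold of adjusted p under 0.05 in any treatment, with values of 2.05 with anti-PD-1 (adjusted p = 0.116), -0.07 after 20 Gy (adjusted p = 0.978) and 1.22 after the combination (adjusted p = 0.355). With anti-PD-1 it passed without 1 primary, replicate 2 (adjusted p = 0.0314). Gm3379 also did not pass in any treatment, at 0.40 untreated (adjusted p = 0.551).

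Within 1000000 bases to either side, 29 annotated genes passed the filter, 9 before Dlk1 and 20 after Dio3. Begain, a gene named for a protein of brain synapses that lies before Dlk1 at 109032187 to 109068217, was the flanking gene with the largest difference in untreated tumors. Its mean was 2.63 ± 0.66 CPM (SD, n = 4) in untreated transplants and 11.4 ± 7.42 CPM (SD, n = 8) in untreated primaries. The log2 fold change was -2.12 (SE 0.52, edgeR adjusted p = 0.00628), and 6.41% of all genes passed the test in this direction. It was -2.11 with anti-PD-1 (adjusted p = 0.00832, where 3.96% of genes passed as lower) and -2.25 after 20 Gy (adjusted p = 0.00756, where 2.4% passed as lower). Without 1 transplant, replicate 1 of the anti-PD-1 group, the adjusted p was 0.0630. After the combination it was -1.52 and did not pass (adjusted p = 0.0577, 3.72% passed as lower), and it passed with DESeq2 (adjusted p = 0.0195).

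Of the other 28 flanking genes, 1 passed untreated and 1 after the combination, and 0 passed in the remaining treatments by edgeR. These were Gm34220, higher in untreated transplants by 0.80 on the log2 scale (adjusted p = 0.0457), and Evl, higher after the combination by 0.60 (adjusted p = 0.0143). Both lie before Dlk1. The call of Gm34220 was lost with no filter, with only the groups compared, with limma voom and in 7 of 12 fits that left out a tumor. The call of Evl was lost with only the groups compared and without transplant replicate 3 of the combination. The log2 fold changes of the 28 genes ran from -0.51 to 1.88 untreated, so none of them fell as far as Begain or as Dlk1, Meg3, Rian and Mirg. Of all genes, 3.88% passed as higher untreated and 3.04% after the combination.

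**Figure D2:**
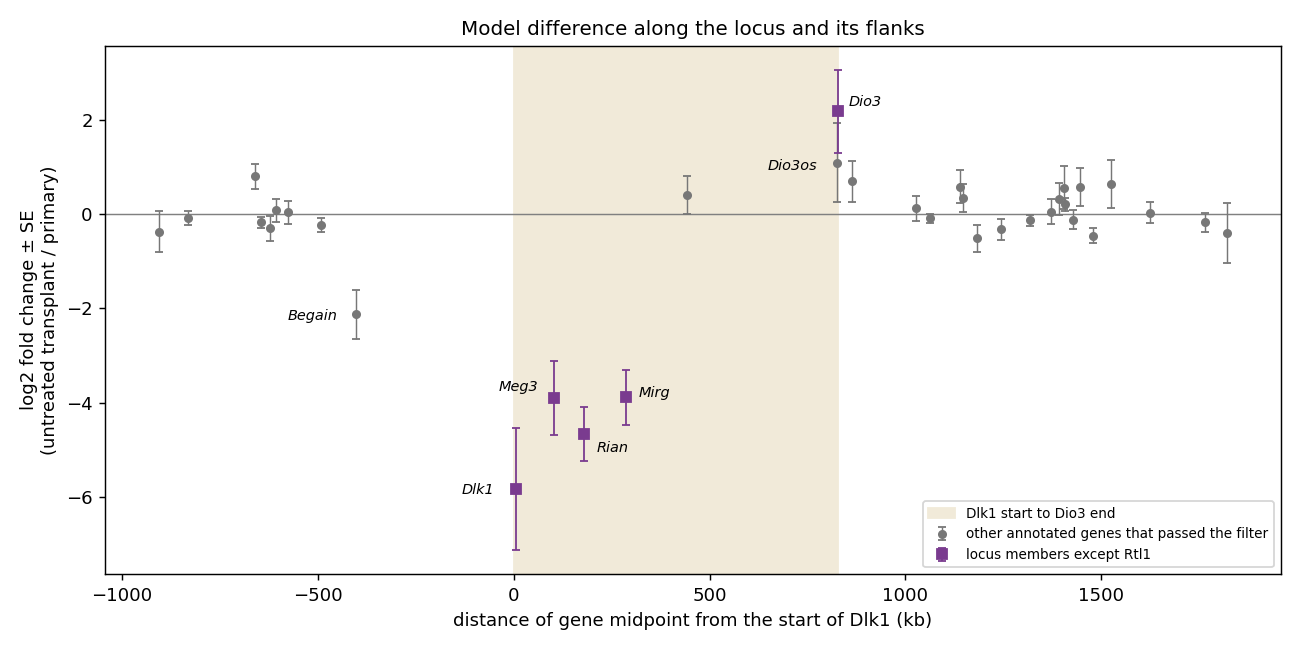
Log2 fold change (± SE) of untreated transplants against untreated primaries along chromosome 12, by distance of the gene midpoint from the start of Dlk1 in kb, for locus members (purple squares) and other genes that passed the filter (gray points). Rtl1 and genes with fewer than 10 counts in either untreated group are left out. Dlk1, Meg3, Rian and Mirg lie between -5.82 and -3.88, Dio3 lies at 2.17, Begain lies at -2.12, and the other flanking genes shown lie between -0.51 and 0.80.

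Gene lists around the locus, chosen with earlier results of these data known, were described for untreated transplants against untreated primaries. In this contrast the counts and adjusted p-values of these and the following lists are therefore a description and not a test of the lists. Beside the median log2 fold change of all genes, -0.01, the median of 22 imprinted genes outside the locus was -0.72. Of the 22 genes 7 passed the test as lower and 1 as higher, where 6.41% of all genes passed as lower and 3.88% as higher. Magel2 had 0 CPM in the untreated transplants and 0.211 ± 0.239 CPM (SD, n = 8) in untreated primaries. Ndn, an imprinted regulator of cell growth, fell by 3.53 (adjusted p = 0.00253) and Plagl1, a zinc-finger protein, by 2.88 (adjusted p = 0.00490), while Nnat rose by 2.58 (adjusted p = 0.0434). Of 8 retrotransposon-derived relatives of Rtl1, 3 were lower, with a list median of -1.11. They were Rtl3 (-3.65, adjusted p = 0.00163), Peg10 (-2.68, adjusted p = 0.00329) and Rtl9 (-2.01, adjusted p = 0.0259).

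In the lists tied to the roles of Dlk1 and Dio3, described in the same way, about as large a share passed as over all genes. Of all genes, 6.41% passed as lower and 3.88% as higher. Of 15 Notch pathway genes, listed because Dlk1 is related to Notch ligands, 1 was lower and 0 were higher, with a median of -0.33. It was Rbpj, the DNA-binding partner of Notch (-0.89, adjusted p = 0.0110). Of 6 genes that handle thyroid hormone, the substrate of Dio3, 0 passed by edgeR, with a median of -0.09. Of 18 factors that keep imprints, 1 was lower, Aff3 (-2.88, adjusted p = 0.000234), which is known to bind the control region of this locus, and the median was -0.07.

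Some markers of other cell types also differed between the models, where 6.41% of all genes passed as lower and 3.88% as higher. Of 6 pericyte and smooth muscle markers, 4 were lower in untreated transplants (Cnn1, Tagln, Cspg4 and Acta2), and their summed level was 150 to 300.2 CPM in untreated transplants against 149 to 1693 in primaries. Of 8 fibroblast markers, 2 were lower (Lum and Dpt), with sums of 3408 to 5015 CPM against 5659 to 14385. The sum of 9 skeletal muscle fiber markers ran from 71.1 to 18152 CPM in untreated transplants and from 57.5 to 5513 in primaries, and 0 of them passed by edgeR. Of 6 adipocyte markers 0 passed, of 9 myogenic markers 1 was higher (Myf5), of 8 leukocyte markers 1 was higher (Cd8a) and of 8 cell cycle genes 0 passed. None of 6 endothelial, 4 Schwann cell or 3 tested epithelial markers passed. Of 6 genes of the sarcoma mesenchyme itself, 2 were lower (Col1a2 and Fn1). No marker of these lists was at 0 throughout either untreated group. The part of these cells in the member levels was not tested.

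Treatment within a model is another contrast than the one that chose the members, and it was tested. It shares the untreated tumors with that contrast, so these p-values are not independent of the choice. In primary tumors, Rian and Mirg were lower after the combination than without treatment. Of the 6 members 2 passed as lower and 0 as higher, where 7.44% of all genes passed as lower and 11.4% as higher. The median log2 fold change was -1.33 over the members and -0.01 over all genes.

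Rian held 20.9 to 120 CPM after the combination, with a median of 83.5, against 110.5 to 354 untreated, with a median of 206. Of 8 treated primaries 7 lay below all 8 untreated ones. The log2 fold change was -1.50 (SE 0.37, edgeR adjusted p = 0.00393). The call held in 6 of 6 other settings of the fit, with adjusted p from 0.00106 to 0.0319, and in 16 of 16 fits that left out a tumor of either group.

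Mirg held 0.742 to 7.03 CPM after the combination, with a median of 3.87, against 3.31 to 18.0 untreated. Of 8 treated primaries 3 lay below all untreated ones and all 8 lay below the untreated median. The log2 fold change was -1.15 (SE 0.38, adjusted p = 0.0295). This call held in 4 of 6 other settings and in 10 of 16 fits that left out a tumor, with adjusted p up to 0.119 and 0.106. Among the settings, it was lost with only the groups compared and with the library labelled parental tumor as a ninth untreated primary (adjusted p = 0.0704). That library held 1.07 CPM of Mirg and its markers went against its label, so this setting does not stand for a further primary tumor. The call was also lost without untreated replicate 3 (adjusted p = 0.0562), 7 (0.0654) or 8 (0.106) and without combination replicate 3 (0.0598), 4 (0.0786) or 7 (0.0569).

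The other members did not pass. Meg3 held 18.1 to 190 CPM after the combination against 39.3 to 378 untreated (log2 fold change -0.96, SE 0.52, adjusted p = 0.188). Dlk1 held 4.32 to 458 CPM against 165 to 1690, and 6 of 8 treated primaries lay below all untreated ones (-1.69, SE 0.79, adjusted p = 0.125). Dlk1 passed with limma voom (-2.43, adjusted p = 0.0373), which called 1369 of 19327 genes as lower. Rtl1 was at 0.138 ± 0.0935 CPM against 0.498 ± 0.454 (SD, n = 8 each, -1.82, SE 0.67, adjusted p = 0.0523).

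Dio3 was the member with a positive value. It held 0.356 to 12.7 CPM after the combination against 0.0864 to 1.73 untreated, and 5 of 8 treated primaries lay above all untreated ones. The log2 fold change was 2.09 (SE 0.78, adjusted p = 0.0519). Both Rtl1 and Dio3 passed with DESeq2, at adjusted p = 0.0401 and 0.0139. In this contrast DESeq2 called 4352 of 19327 genes, 2950 as higher and 1402 as lower. Dio3 passed in 3 of 6 other settings of the fit, 1 of them with the library labelled parental tumor as a ninth untreated primary (adjusted p = 0.0275). Leaving out a tumor brought Rtl1 past the threshold in 4 of 16 fits, without untreated replicate 2 or 4 or combination replicate 2 or 5, and Dio3 in 4 of 16, without combination replicate 1, 5, 6 or 7.

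Other lists moved in the same contrast in primaries, with names that were chosen after their values were seen. There 7.44% of all genes passed as lower and 11.4% as higher. Of 8 cell cycle genes, 5 fell (Bub1, Mki67, Ccnb1, Top2a and Aurka), and their list summed to 281 to 999.3 CPM after the combination against 567 to 1116 untreated. Of 6 pericyte markers 2 fell (Acta2 and Cspg4), of 8 fibroblast markers 1 fell (Cd34), of 6 sarcoma mesenchyme genes 1 fell (Vim), and of 3 tested epithelial markers 1 rose (Cdh1). Of 9 myogenic markers 5 rose (Myf5, Mymk, Myh3, Pax7 and Myh8). After the combination the SD of each of these 5 exceeded its mean, as for Myh3 at 18.2 ± 41.1 CPM (SD, n = 8). The sum of the 9 myogenic markers did not rise, with a median of 87.9 CPM after the combination against 95.9 untreated. Their mean log2 CPM was 0.41 ± 2.84 against -1.01 ± 1.28 (SD, n = 8 each). Of 8 leukocyte markers 3 rose (Ptprc, Itgam and Cd68). None of the 9 muscle fiber, 6 adipocyte, 6 endothelial or 4 Schwann cell markers passed. The muscle fiber sum ran from 12.3 to 72794 CPM after the combination, and the treated primary with the lowest Rian and Mirg, replicate 4, had the highest muscle fiber level of its group. The part of these cells in the fall of Rian and Mirg was not tested.

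Among lists tied to the locus, imprinted genes elsewhere had 1 gene higher (Slc38a4) and 2 lower (Mest and Sgce) of 22, with a median of -0.13. Of 18 imprint factors 2 were lower (Aff3 and Uhrf1) and 1 higher (Jarid2). Of 15 Notch genes 1 was lower (Rbpj) and of 8 relatives of Rtl1 1 was higher (Rtl5). Of 6 thyroid hormone genes 0 passed by edgeR.

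In transplants 0 of the 6 members passed after the combination, where 4.13% of all genes passed as higher and 0.279% as lower. For Rian the log2 fold change was 1.27 (SE 0.53, edgeR adjusted p = 0.191), and 2 of 4 treated transplants lay above all untreated ones. For Meg3 it was 1.22 (SE 0.74, adjusted p = 0.417), for Mirg 0.57 (SE 0.56, adjusted p = 0.665), for Dio3 0.98 (SE 1.05, adjusted p = 0.707) and for Dlk1 -1.34 (SE 1.12, adjusted p = 0.601). A single transplant, replicate 2, set much of these values. It held the highest Meg3, Rian and Mirg of all 16 transplants, and without it the values were 0.36 for Rian, 0.42 for Meg3 and 0.12 for Mirg. In its group the summed pericyte markers ran from 107.3 to 495 CPM and the adipocyte markers from 17.8 to 305, and both highest sums belonged to this tumor.

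The difference between the models in the response to the combination, an interaction, contains the contrast that chose the members, so their values are a description with no test. The interaction was 2.78 on the log2 scale for Rian, 2.18 for Meg3, 1.72 for Mirg, 0.35 for Dlk1 and -1.11 for Dio3. Without transplant replicate 2 of the combination it was 1.84 for Rian, 1.36 for Meg3 and 1.25 for Mirg. Over all 19327 genes 0 passed by edgeR, with 1237 at an unadjusted p under 0.05, while DESeq2 called 4 and limma voom 0. For Dio3 the sign was not settled, since limma voom gave 0.037.

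Neither treatment alone moved a member past the threshold, and the combination was not tested against either treatment alone. After 20 Gy alone in primaries 0 of 6 members passed, where 18.3% of all genes did (9.19% as higher and 9.1% as lower), with log2 fold changes from -0.45 to 1.43, adjusted p from 0.192 to 0.933 and 95% intervals reaching from -1.88 to 2.92. In transplants 1.92% of genes passed (1.82% as higher and 0.103% as lower) and 0 members, and the 5 members other than Rtl1 lay between -0.30 and -0.06. With anti-PD-1 alone the values ran from -0.07 to 0.28 in primaries and from -0.24 to 0.92 in transplants, with adjusted p of 1. There edgeR called 0% of genes in both models, with 3.66% and 0.678% at an unadjusted p under 0.05, DESeq2 called 12 and 3, and limma voom 0 and 0. Over all genes, the interactions of the models with either treatment alone passed for 0.00517% with radiation and 0% with anti-PD-1, where 147 genes had an unadjusted p under 0.05, DESeq2 called 3 and limma voom 0. The wide intervals leave changes of several fold undetectable at this number of tumors.

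**Figure D3:**
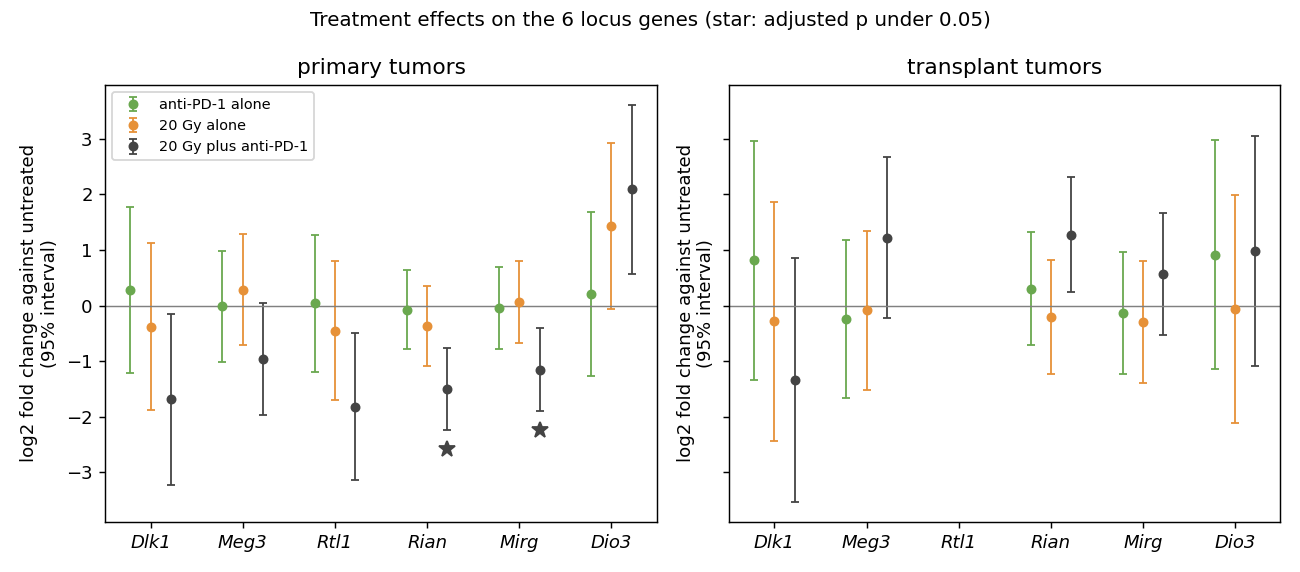
Log2 fold change against untreated tumors (points, with 95% intervals) of each locus gene after anti-PD-1 alone (green), 20 Gy alone (orange) and the combination (black), in primary tumors (left) and transplants (right, Rtl1 left out for its low counts). Stars mark an edgeR adjusted p under 0.05, reached by Rian (-1.50) and Mirg (-1.15) in primaries after the combination.

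Tumors of one model that received the same treatment still differed, and members were compared across them after the group mean of log2 CPM was subtracted. Correlations were tested by permutation within treatment groups and adjusted over the 81 correlations of primaries or the 65 of transplants. In the 32 primaries 4 of 15 pairs of members passed. Meg3 and Mirg rose and fell together most closely (Pearson r = 0.93, Spearman rho = 0.92, permutation p = 1e-05 for each, adjusted p = 0.00027 and 0.000405). The value 1e-05 is the smallest these permutations can give. Rian followed Mirg (r = 0.89, rho = 0.85, permutation p = 1e-05 for each, adjusted p = 0.00027 and 0.000405) and Meg3 (r = 0.82, rho = 0.76, permutation p = 1e-05 and 2e-05, adjusted p = 0.00027 and 0.00054). Without the 2 tumors farthest from the median, r was 0.93, 0.86 and 0.76 for these pairs.

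Dlk1 was tied more loosely to the non-coding RNAs. With Rian it gave r = 0.56 (permutation p = 0.00233, adjusted p = 0.0377) and rho = 0.47 (permutation p = 0.0118, adjusted p = 0.106), and r = 0.50 without the 2 farthest tumors. With Meg3 it gave r = 0.40 (permutation p = 0.0285, adjusted p = 0.165). With Rtl1, also paternal, it gave r = 0.47 (permutation p = 0.00741, adjusted p = 0.0706) and rho = 0.55 (permutation p = 0.00231, adjusted p = 0.0374). Between Dlk1 and Dio3 r was -0.01 and rho -0.03 (permutation p = 0.976 and 0.893).

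Dio3 instead moved with muscle markers. In primaries it gave r = 0.71 and rho = 0.66 with the mean of 9 muscle fiber markers (permutation p = 4e-05 and 0.00021, adjusted p = 0.00081 and 0.00425, r = 0.64 without the 2 farthest tumors). With the 9 myogenic markers it gave r = 0.57 and rho = 0.56 (permutation p = 0.00331 and 0.00335, adjusted p = 0.0447 and 0.0452), which did not pass with a prior count of 0.5 (adjusted p = 0.0624). These were the only 2 of 66 correlations of a member with a marker list that passed in primaries. Rian, Meg3 and Mirg passed with none of the lists there.

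In the 16 transplants 4 of 10 pairs passed, with Rtl1 left out. They were Meg3 with Rian (r = 0.92, rho = 0.91, permutation p = 0.00064 and 0.0005, adjusted p = 0.00936 and 0.0112), Meg3 with Mirg (r = 0.88, rho = 0.84, permutation p = 0.0004 and 0.0008, adjusted p = 0.00936 and 0.0112), Rian with Mirg (r = 0.77, rho = 0.74, permutation p = 0.0048 and 0.00774, adjusted p = 0.0243 and 0.0387) and Rian with Dio3 (r = 0.60, rho = 0.70, permutation p = 0.00735 and 0.00412, adjusted p = 0.0335 and 0.0243). Without the 2 farthest tumors r was 0.86, 0.84, 0.66 and 0.60. Dlk1 with Meg3 gave r = 0.03 (permutation p = 0.901).

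In transplants 12 of 55 correlations with a marker list passed, 2 of Meg3, 4 of Rian and 6 of Dio3, and 0 of Mirg or Dlk1. Rian gave r = 0.86 with the pericyte list (rho = 0.85, permutation p = 0.00072 and 0.0008, adjusted p = 0.00936 and 0.0112) and r = 0.82 with the adipocyte list (rho = 0.83, permutation p = 0.00101 and 0.00086, adjusted p = 0.00938 and 0.0112). For Meg3 these were r = 0.80 (permutation p = 0.00458, adjusted p = 0.0243) and r = 0.75 (permutation p = 0.00276, adjusted p = 0.0224). Dio3 gave r = 0.93 with the myogenic list (rho = 0.90, permutation p = 0.0003 and 0.00011, adjusted p = 0.00936 and 0.00715) and r = 0.85 with muscle fiber markers (rho = 0.74, permutation p = 0.00459 and 0.0075, adjusted p = 0.0243 and 0.0387). Rian also passed with the myogenic list (r = 0.66, permutation p = 0.00318, adjusted p = 0.0230) and the Schwann cell list (r = 0.64, permutation p = 0.0114, adjusted p = 0.0465). By Spearman rho alone, Rian passed with the muscle fiber list too (rho = 0.67, permutation p = 0.0111, adjusted p = 0.0481). Dio3 also passed with the pericyte list (r = 0.82, permutation p = 0.00049, adjusted p = 0.00936), the fibroblast list (r = 0.79, permutation p = 0.00089, adjusted p = 0.00938), the Schwann cell list (r = 0.70, permutation p = 0.00772, adjusted p = 0.0335) and, with a negative sign, the epithelial list (r = -0.50, permutation p = 0.00487, adjusted p = 0.0243). By rho Dio3 did not pass with the Schwann cell (0.62, adjusted p = 0.0910) or epithelial list (-0.54, adjusted p = 0.0822). Without the 2 farthest tumors r of Dio3 was 0.83 (myogenic), 0.61 (muscle fiber), 0.68 (pericyte), 0.62 (fibroblast), 0.56 (Schwann cell) and -0.50 (epithelial). For Rian it was 0.89 (pericyte), 0.85 (adipocyte), 0.67 (myogenic) and 0.60 (Schwann cell), and for Meg3 0.82 (pericyte) and 0.78 (adipocyte). Whether the share of such cells sets the levels of Rian, Meg3 and Dio3 was not tested.

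**Figure D4:**
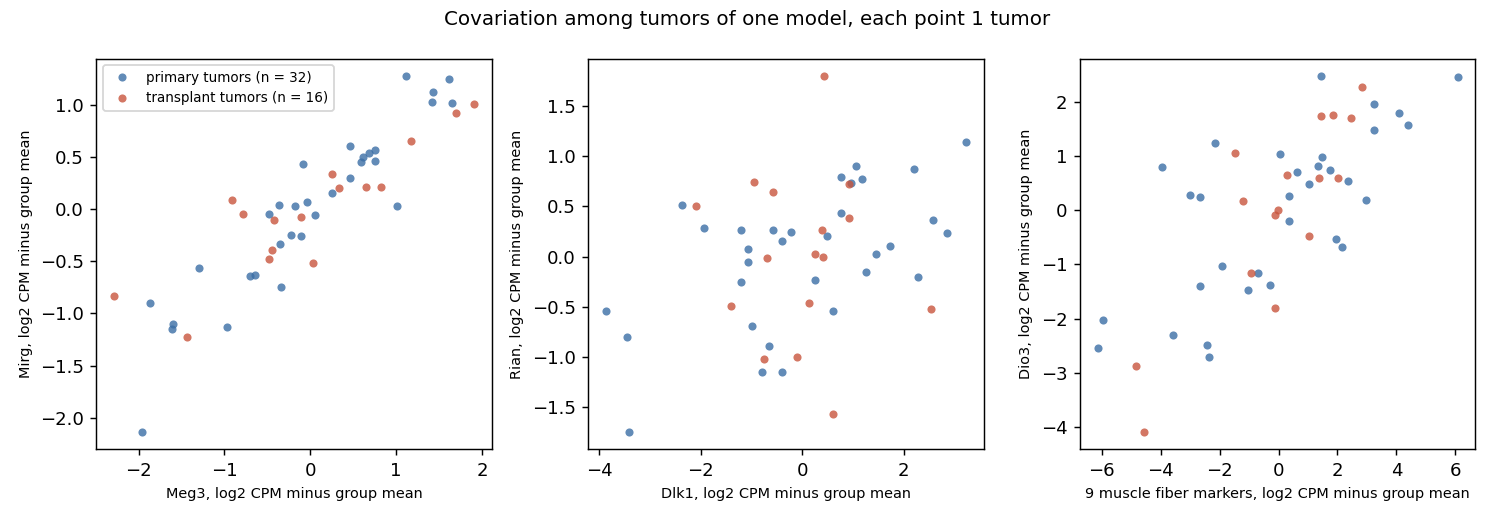
Log2 CPM after subtraction of the group mean, each point 1 tumor (32 primaries in blue, 16 transplants in red): Mirg against Meg3 (left), Rian against Dlk1 (middle) and Dio3 against the mean of 9 muscle fiber markers (right). Mirg follows Meg3 in both models (r = 0.93 and 0.88), and Dio3 follows muscle markers (r = 0.71 and 0.85).

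The genes whose pattern over the 32 primaries was most like that of a member were sought among 12831 genes outside the locus. For Dlk1 they were Itgbl1 (r = 0.69), Ank (0.68), Egr3 (0.68), Il17d (0.66) and Steap3 (0.66). In transplants the same genes gave r of 0.50, 0.51, 0.33, 0.29 and 0.74. For the mean of Meg3, Rian and Mirg they were Klhdc8b (0.74), Plag1 (0.70), Dnm3os (0.69), Clcf1 (0.69) and Spaca6 (0.68), with r of 0.16, -0.49, 0.37, -0.21 and 0.24 in transplants. These values are a description, since the genes share libraries and depth with the members. None of the genes sought for the mean of Meg3, Rian and Mirg reached the r of 0.82 to 0.93 found among these members. The genes sought for Dlk1 had a higher r with it than any other member had, the highest being Rian at 0.56. They were, however, picked as the highest of 12831.

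The libraries of line 402230, scaled together with the tumors and without replicates, differed from each other in the maternally expressed members. The library labelled parental tumor held 1.79 CPM of Meg3 and 3.02 CPM of Rian, below all 16 transplants. The library labelled cell line held 82.5 CPM of Meg3 and 79.9 CPM of Rian, above all 16 transplants and inside the range of the primaries. For Mirg the values were 1.07 CPM, above 15 of 16 transplants, and 3.66 CPM, above all 16, and for Dio3 0.0894 and 1.24 CPM.

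Dlk1 differed in the other direction, with 47.4 CPM in the library labelled parental tumor and 21.5 in the library labelled cell line. The former lay above all 16 transplants and the latter above 15 of them. Rtl1 had 0 and 2 counts, and the miRNA genes of the locus had 0 and 21 counts. In the library labelled parental tumor Mirg per length was higher than Meg3 per length (log2 ratio 0.57), whereas in all 48 tumors it was lower (-3.91 to -1.67). That library also had the muscle gene Acta1 at 0.469 CPM and the macrophage gene Csf1r at 0.492, below all tumors, and the proliferation gene Mki67 at 611 CPM, above all tumors. The library labelled cell line had Acta1 at 56.6, Csf1r at 234 and Mki67 at 103.98 CPM, inside the range of the tumors.

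**Figure D5:**
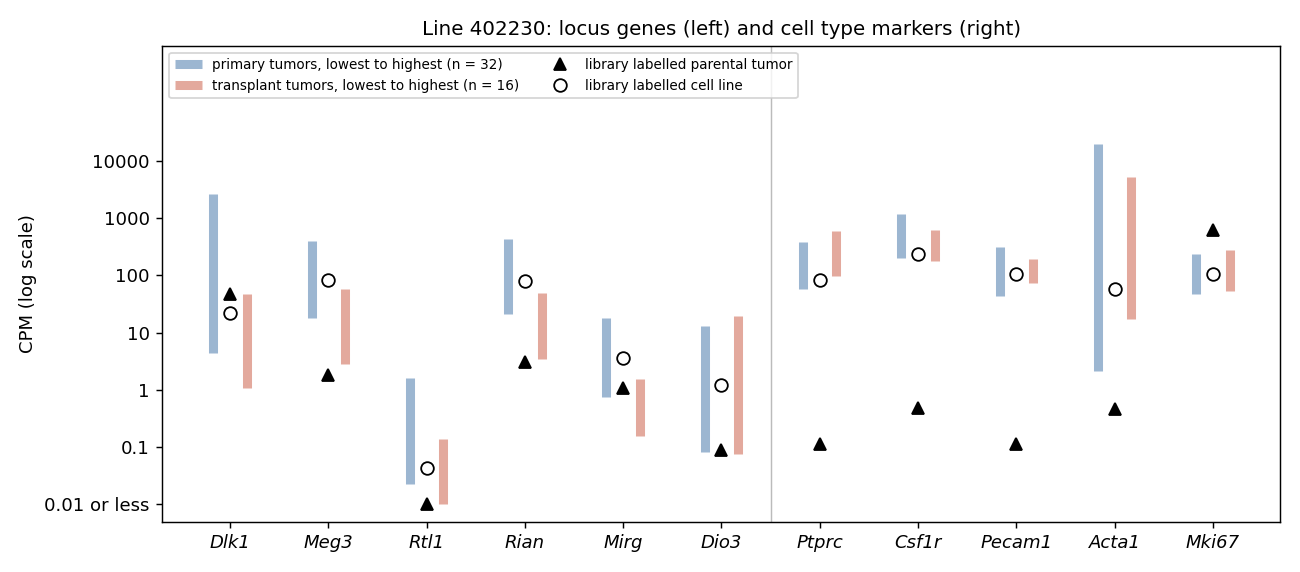
Level in CPM (log scale, values of 0.01 or less drawn at 0.01) of the 6 locus genes (left) and 5 cell type markers (right) in the libraries of line 402230 labelled parental tumor (triangles) and cell line (circles), with bars for the lowest to highest of 32 primaries (blue) and 16 transplants (red). The library labelled parental tumor lies below all tumors for Meg3 (1.79 CPM) and for Ptprc (0.112 CPM) and above them for Mki67 (611 CPM).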

How the data were processed

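RNA was sequenced from 48 tumors in 8 groups and from 2 libraries of line 402230. These 2 entered no main comparison, and the library labelled parental tumor entered only an alternative fit. The authors caught mRNA on oligo-dT beads and made stranded libraries. Per the labels and the methods of the study, reads were trimmed (Trimmomatic 0.36), aligned to mm10 (STAR) and counted per gene of GENCODE M17 (HTSeq). The deposited values were raw whole-number counts, without normalization. Symbols and coordinates came from GENCODE M21, which matched 37408 of 37469 identifiers. The strand setting of counting is not given in the sources used here.

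Counts were filtered by group, scaled by TMM and fitted over all 48 tumors with the quasi-likelihood test of edgeR 4.0.16 in R 4.3.3, with Benjamini-Hochberg adjustment over 19327 genes and a threshold of 0.05. CPM used a prior count of 2 on the log2 scale. The script was tested on simulated data. Alternatives were DESeq2 1.42.0, limma voom 3.58.1, RLE factors, no filter, only the groups compared, the library labelled parental tumor as a ninth untreated primary, and leaving out each tumor. Correlations used 100000 permutations within groups. Over 136 pairs of replicates, counts differed by more than sampling noise (lowest chi-square per degree of freedom 85.6). Nothing in the labels pairs tumors, and replicate numbers follow accession order. The labels name separate tumors, and p-values measure the spread between them. All 16 transplants came from line 402230, so p-values between the models do not measure the spread between transplanted lines.

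Members and gene lists were chosen with earlier results of these data known. The named genes were the 6 members, the annotated genes of the locus and of its flanks, up to 4 called genes a list with the largest change in untreated transplants, and the 5 genes most like Dlk1 or like the mean of Meg3, Rian and Mirg, among genes with a mean log2 CPM of at least 1. Genes of a list named for a treatment contrast were chosen after their values were seen. Precision for Rtl1 is limited by its 0 to 78 counts a library.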

Additional observations from a re-analysis of the deposited data

Results flagged for a closer look

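The level of each member was compared among the tumors of each group, 48 groups of values in all, and 2 had a tumor far from the rest by Dixon's test. Chance gives this in about 1 in 20 groups. Dlk1 in transplants after the combination had its lowest tumor, replicate 3, at a log2 CPM of 0.22 (1.12 CPM), and its gap to the nearest tumor took 0.888 of the range of the group. Mirg in primaries after the combination had its lowest tumor, replicate 4, at a log2 CPM of -0.34 (0.742 CPM), with a gap of 0.595 of the range. Without that primary the change in Mirg was -0.97 (edgeR adjusted p = 0.0786).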

How the results depend on the processing

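With only the groups compared, edgeR called 2154 genes after 20 Gy in primaries (3534 over all tumors), 1047 in transplants (372), 1396 after the combination in primaries (3635), of which 1 was a member (2), and 2 between the models after the combination (1307), where fewer tumors entered the fit. With DESeq2 the counts were 601 after 20 Gy in transplants, and 12 and 3 with anti-PD-1 in primaries and transplants (0 and 0). After the combination in primaries DESeq2 called 4352 of 19327 genes, 2950 as higher and 1402 as lower, and 4 of them were members. For the interaction of the model with radiation, with anti-PD-1 and with both it called 4, 3 and 4 genes (1, 0 and 0). Between the models it called 1458 after 20 Gy (942) and 2079 after the combination. Without a filter, 228 genes were called after 20 Gy in transplants, 742 between the models after the combination and 0 for the interaction of radiation. With the library labelled parental tumor as a ninth untreated primary, these counts were 153, 683 and 0, and 410 genes were called after the combination in transplants (852). RLE factors also gave 0 for that interaction. In primaries, 5 marker correlations passed without centring on treatment and 1 with a prior count of 0.5 (2). The cause of these shifts was not tested.

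Leaving out each tumor in turn, genes called ran from 2641 to 4117 after 20 Gy in primaries, 72 to 631 in transplants, 2537 to 4400 after the combination in primaries and 270 to 917 in transplants. Between the models they ran from 1009 to 2248 untreated (1988), 627 to 1516 with anti-PD-1 (1421), 350 to 917 after 20 Gy and 154 to 2353 after the combination. For the interactions they ran from 0 to 2, 0 to 0 and 0 to 1. Members called after the combination in primaries ran from 1 to 4.

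Values that changed sign were small. The interaction of the combination ran from -0.27 to 0.81 for Dlk1 when a tumor was left out (0.35) and was 0.037 for Dio3 with limma voom. Dio3 between the models after 20 Gy was -0.0018 with limma voom, and Dio3os ran from -0.41 to 0.36 when a tumor was left out. For Dlk1 with Dio3 in primaries r was 0.0029 with RLE factors. Without centring, r was -0.11 for Mirg with Dio3 and -0.028 for Rtl1 with Dio3 in primaries, and -0.12 for Dlk1 with Meg3 and -0.14 for Dlk1 with Mirg in transplants. For Dio3 with the epithelial list in transplants r was -0.29 with RLE factors and no longer passed. No paired analysis was possible because the labels carry no replicate numbers and those used here were given in accession order.

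Groups of 4 transplants from a single line, intervals that span several fold, and few counts of Rtl1 and the miRNA genes limit these results, and parental copies cannot be told apart in gene counts.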

Other observations

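After radiation alone none of the 6 members passed the test in primaries, and the lists tied to the locus were read beside the 9.1% of all genes that passed as lower and the 9.19% that passed as higher (edgeR, adjusted p under 0.05). The genes named here were chosen after their values were seen. Of 15 Notch pathway genes 5 fell and 0 rose, with a median log2 fold change of -0.48 beside -0.01 over all genes. They were the target genes Heyl (-1.93, adjusted p = 0.00836), Hey1 (-0.996, adjusted p = 0.0455) and Nrarp (-0.85, adjusted p = 0.00769), the ligand Dll4 (-0.69, adjusted p = 0.0431) and Rbpj (-0.61, adjusted p = 0.0168). Heyl was at 10.8 ± 12.6 CPM untreated and 2.85 ± 0.92 after 20 Gy, and Hey1 at 9.56 ± 10.7 and 4.80 ± 1.46 (SD, n = 8 each). Their untreated SDs exceeded their means, whereas those of Nrarp, Dll4 and Rbpj lay below their means. Of 22 imprinted genes outside the locus 2 fell and 1 rose, a share near or below that of all genes. Mest fell from 149.8 ± 183 to 25.8 ± 8.84 CPM (SD, n = 8 each, log2 fold change -2.54, adjusted p = 0.000108), Gnas fell by 0.37 (adjusted p = 0.0147) and Kcnq1ot1 rose by 1.01 (adjusted p = 0.0283). Of 18 factors that keep imprints, Aff3 (-1.15, adjusted p = 0.0225) and Uhrf1 (-0.74, adjusted p = 0.0245) fell and 0 rose. In the same contrast 5 of 8 cell cycle genes fell and 4 of 8 leukocyte markers rose (among them Lyz2 by 1.13 and Ptprc by 1.07), Cd34 fell by 1.32 and Vim by 0.73, and Myh11 rose by 2.00 and Egfl7 by 0.66. Their part in these changes was not tested.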
